A study of Saccharomyces cerevisiae with 5 samples.

Results

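Budding yeast cells that overexpressed 6 replication initiation factors in galactose started replication at 46 places where neither wild-type sample had a start of probability 0.1 or more. These 46 galactose-only sites are taken from 407 sites found over all 5 samples, and 34 of them lie over 10 kb from any wild-type site. The members were selected on fitted initiation probabilities. A site is a position and time at which rightward and leftward forks both set out with a mean net probability no lower than 0.1. Positions from separate samples no more than 2500 bp apart count as one site, and a member had to be listed in galactose E and galactose G and in neither wild type A nor wild type B. The presence of a member in galactose and its absence in wild type are therefore the rule and not a finding, and the values of these 4 samples below describe the members. Where a limma count includes these samples, it is given as a description too, since starts and times come from the same fits. The 34 sites over 10 kb from a wild-type site are called separated sites, and the other 12 are called near sites.

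Replication starts where a helicase loaded in G1 phase is switched on in S phase. Yeast loads helicases at many more places than it uses in one cell cycle, and a place that is loaded but not switched on is copied passively by a fork from a neighbour. The activating factors are scarce relative to loaded helicases: Sld3, Sld7 and Cdc45 join the helicase first, further subunits arrive with Sld2 and Dpb11, and Dbf4 is the partner that activates the Cdc7 kinase. Okazaki fragments, from which the lagging strand is built, come from opposite strands for rightward and leftward forks, so sequencing them shows the fork direction at each place.

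The 5 samples are asynchronous Saccharomyces cerevisiae cultures in 3 groups. Galactose E and G are replicates of the strain labelled WT [yIW160-SSDDCS] with Sld2, Sld3, Dbf4, Dpb11, Cdc45 and Sld7 overexpressed (n = 2), and glucose F is the same strain in glucose with normal expression (n = 1). Wild type A and B are replicates of strain WT [yIW160] (n = 2). The growth notes, which are the same for all 5, give 30 degrees, 4 hours in 2% of either sugar and then 2.5 hours of doxycycline at 40 micrograms per ml, and do not say which sugar the wild type had. Doxycycline shuts off the DNA ligase in this system, so that Okazaki fragments accumulate in every sample. All 3 samples of the overexpression strain were single-end Ion Torrent libraries and both wild-type samples were paired-end Illumina libraries, so strain and platform cannot be told apart, and neither can galactose medium and raised factors. Nothing in the labels says whether replicates were separate cultures, so the limma p-values measure only the spread between these samples.

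Each sample is a model of fork paths that the authors fitted to fragment counts, and the files hold no counts, so the depth is not known and values carry no counting interval. The probability of a site is the fraction of genome copies that initiate there in the fit. Times are minutes from the earliest mean position of each sample and rest on one fork speed for all samples, 2900 bases per minute. The fits hold from 3189 segments in galactose G to 6353 in wild type A. Positions are those of the files, whose build the labels do not name, and the annotation given here belongs to another assembly, so no gene or sequence is assigned to a site.

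The separated sites lay on 13 of 16 chromosomes. Chromosome IV held 7, chromosomes II, XIII and XV held 4 each, and chromosomes I, IX and XIV held none. Per Mb of chromosome, VI held the most at 7.40 (2 sites), followed by II at 4.92 and IV, the longest, at 4.57. Their nearest wild-type site was between 10.7 and 56.2 kb away, with a median of 16.7 kb, and 6 of the 34 had none within 30 kb. Within 30 kb of a chromosome end lay 4 of the 34 (11.8%), and 6.80% of the 11332 sampled positions that are over 10 kb from a wild-type site.

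How often a separated site was used varied from rarely to every copy. The probability in galactose E ran from 0.154 to 1 with a median of 0.516, and in galactose G from 0.126 to 1 with a median of 0.595. In 6 sites the mean of the 2 samples was at least 0.9, in 14 it was between 0.5 and 0.9 and in 14 it was below 0.5. Compared with the 228 sites listed in all 5 samples, whose medians were 0.884 in E and 0.947 in G, most separated sites were used less. The replicates differed by a median of 0.0811 in probability at separated sites and placed them a median of 166 bp apart, against 0.0538 and 138 bp at the 228 sites.

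**Figure D1:**
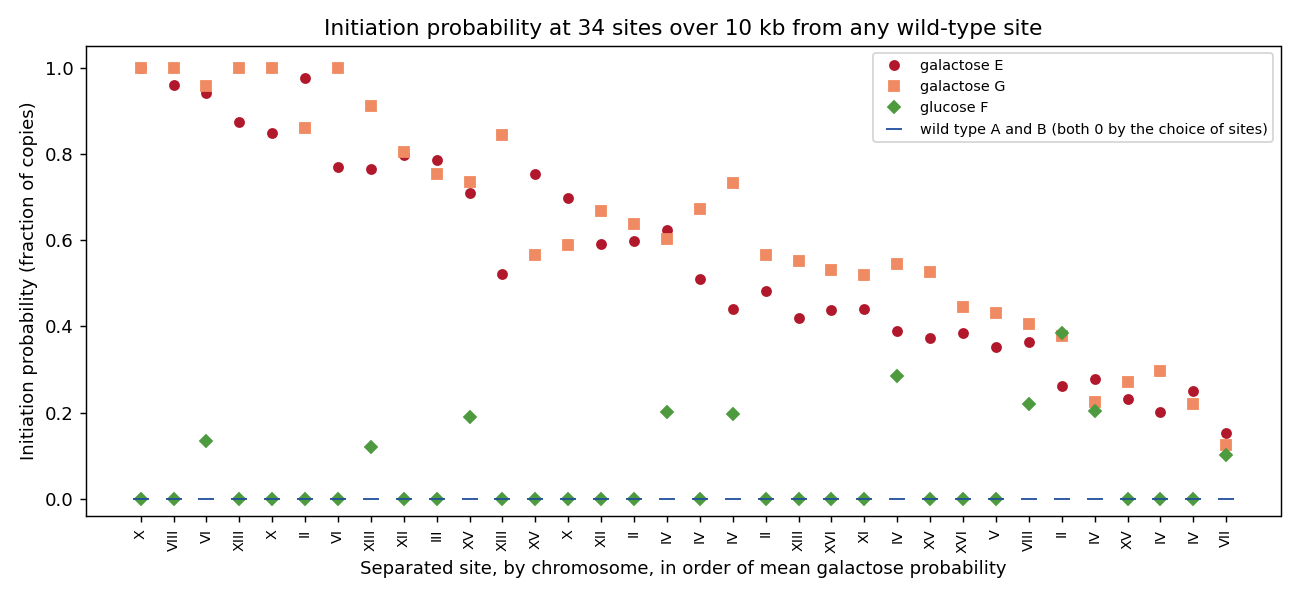
Initiation probability (fraction of genome copies) at each of the 34 separated sites, labelled by chromosome and ordered by the mean of galactose E and G; circles are galactose E, squares galactose G, diamonds glucose F and dashes wild type A and B, which are 0 by the choice of sites. Galactose E and G differ by 0.0811 in the median site and by at most 0.323, and 24 of 34 glucose values lie at 0.

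The site on chromosome X at 654490 was used in every copy in both galactose samples (probability 1 and 1) and had no start in glucose. In wild type 23.5% of forks ran rightward within 5 kb of it in A and 21.9% in B, so most forks came from the right, where the next wild-type site is 29.3 kb away, and 15.5% ran rightward in glucose. The mean fitted time there was 11.4 and 13.7 min in wild type, 14.4 min in glucose and 4.00 and 1.09 min in galactose E and G. Both galactose samples lay below the other 3. A start of this size makes a local time minimum in the same fit. Over all positions galactose minus wild type had a median of -3.30 min.

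A second site on the same chromosome, X at 711679, reached 0.849 in E and 1 in G, and 0 in glucose. Wild-type forks crossed it the other way, with 95.7% rightward in A and 88.8% in B. It was copied at 14.3 and 15.0 min in wild type, 16.9 min in glucose and 5.40 and 2.96 min in galactose. Wild type A had a start of probability 0.0843 within 2500 bp, below the floor of 0.1.

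Chromosome VIII at 212336 stood at 0.959 in E, 1 in G and 0 in glucose, in an interval of 76.7 kb between wild-type sites. Rightward forks made up 19.6% in wild type A and 33.3% in B. Its time was 15.6 and 17.8 min in wild type, 19.6 min in glucose and 8.35 and 6.92 min in galactose. Here too the galactose samples, whose fits hold the start, lay below all others.

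The site farthest from any wild-type site was chromosome VI at 256423, beyond the outermost wild-type site of the right arm, which is 56.2 kb away, and 13.7 kb from the end. It stood at 0.940 in E, 0.957 in G and 0.135 in glucose, and a start of probability 0.0589 lay there in wild type A. Forks ran outward through it in wild type (97.1% and 100% rightward), at 17.8 and 18.6 min. In galactose it was copied at 0.913 and 0.747 min, and its starts at -0.813 and -0.700 min rank at percentiles 8.86 and 6.78 of all starts of E and G. Glucose copied it at 16.5 min.

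On the same arm, chromosome VI at 217412 stood at 0.770 in E, 1 in G and 0 in glucose. Its replicate positions were 1565 bp apart. Wild-type forks were 96.5% and 93.2% rightward there, and it was already early in wild type, at 5.88 and 6.23 min.

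Chromosome II at 29070 stood at 0.976 and 0.859 in galactose and 0 in glucose, and the 2 fits placed it 2 bp apart. Leftward forks copied it in wild type (22.3% and 9.81% rightward) and in glucose (0% rightward). Times were 13.6 and 12.6 min in wild type, 17.7 min in glucose, and 4.51 and 0.831 min in galactose. On chromosome XIII, 159382 stood at 0.874 and 1, and 837895 at 0.764 and 0.911. Glucose had 0 at the first and 0.121 at the second, where wild type A had a start of 0.0663 below the floor.

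On chromosome III, 194967 stood at 0.786 in E and 0.753 in G, with 17.4% and 17.1% of wild-type forks rightward. On chromosome XII, 76740 stood at 0.798 and 0.805, with 17.0% and 12.1% rightward in wild type. The times of this last site overlapped between groups, at 12.6 and 9.76 min in galactose E and G, 12.4 and 10.6 min in wild type A and B and 9.08 min in glucose.

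Some sites were alike in use but not in time between the galactose replicates. Chromosome XV at 72025 stood at 0.710 and 0.734, but its start was at 5.53 min in E and 19.4 min in G. Chromosome II at 389090 stood at 0.597 and 0.639, with starts at -1.96 and 5.21 min. In contrast, chromosome XIII at 772636 (0.521 and 0.843) and chromosome IV at 1445359 (0.441 and 0.733) differed in use, and the latter were placed 1764 bp apart.

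The other 6 of the 20 most used separated sites stood between 0.482 and 0.752 in E and between 0.565 and 0.673 in G. They are chromosome XV at 945992, X at 113772, XII at 244598, IV at 567999, IV at 1486956 and II at 675516. Of these 6, only chromosome IV at 567999 had a start in glucose, at 0.201. The remaining 14 separated sites stood between 0.154 and 0.440 in E and between 0.126 and 0.552 in G.

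In wild type, fork direction and time at the separated sites were close to those of sequence that far from a wild-type site. The main direction took a median of 78.4% of forks (mean of A and B) at the 34 sites and 78.4% over the comparable positions. In 17 of the 34 sites (50.0%) at least 75% of forks ran one way in both wild-type samples, 10 rightward and 7 leftward, against 49.1% of comparable positions. The majority direction was the same in A and B at 33 of the 34 sites, and the same in A, B and glucose F at 30. Over all 407 sites, which include the wild-type starts, the counts were 346 and 299. The share over comparable positions was not computed, so nothing is read from these counts. The median wild-type time was 14.6 min at the separated sites, 14.1 min at comparable positions and 12.9 min over all positions. In both A and B, 18 of the 34 (52.9%) were later than the median position of the sample, against 45.8% of comparable positions. Wild-type times of single sites ran from 6.06 min at chromosome VI 217412 to 30.5 min at chromosome VIII 7799.

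Averaged over the 34 sites and turned so that most wild-type forks run forward, fork direction in galactose reversed on one side of the site only. At 5 kb before the site 82.9% of forks ran forward in wild type A, 86.4% in B and 79.0% in glucose, against 31.4% in galactose E and 26.1% in G. At 5 kb past the site the values were 71.0%, 75.3% and 71.8% against 82.2% and 82.7%. At 20 kb before it all 5 samples lay between 52.5% and 58.8%, and at 20 kb past it, where 31 sites have values, galactose G was lowest at 44.5% and wild type and glucose were between 51.8% and 55.3%. The step at the site itself follows from the choice of members. The width over which the curves part is shaped by that choice too, since separated sites were chosen by their distance from wild-type sites. Turning each site by its wild-type majority makes the wild-type share high and places the galactose reversal before the site. The curves come from the same fits as the sites, so they give sizes only. Sites spread widely around these means, with SDs at 5 kb before the site of 11.8 and 10.6 points in wild type A and B, 21.6 points in glucose F and 22.4 and 21.2 points in galactose E and G (n = 34 sites, which are not replicates).

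**Figure D2:**
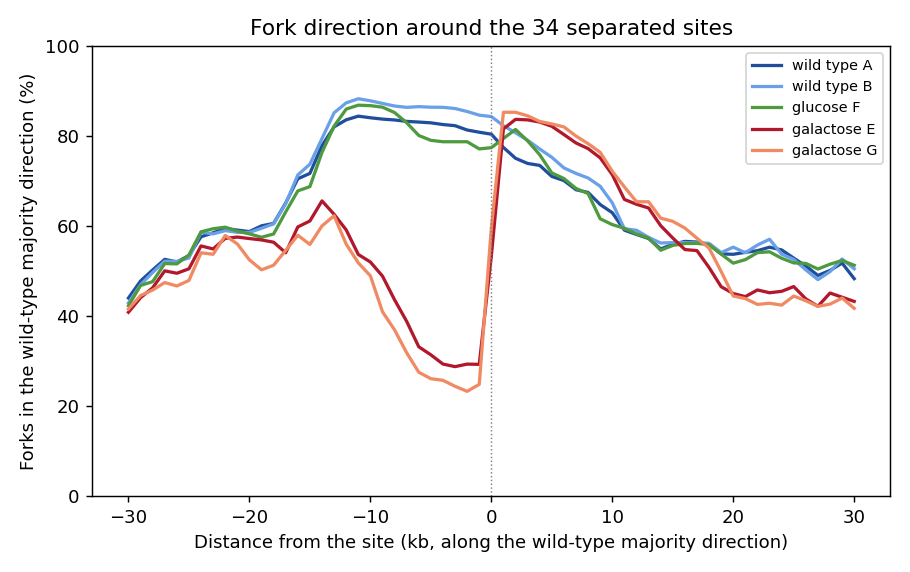
Mean share of forks (%) running in the wild-type majority direction against distance (kb) from the 34 separated sites, one line per sample, each site turned so that most wild-type forks run left to right. Before the site the galactose lines fall to 31.4% and 26.1% at 5 kb while the wild-type and glucose lines stay between 79.0% and 86.4%, and at 20 kb past the site galactose G is at 44.5% and wild type B at 55.3%.

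The time minimum at the site in galactose follows from the choice of members, and the rise through it in wild type from the way the sites were turned, so the times give sizes only. Between 10 kb before and 10 kb past the site (33 of the 34 sites have values at the latter), mean time rose from 12.5 to 15.6 min in wild type A, from 13.0 to 16.9 min in B and from 16.0 to 19.5 min in glucose. Galactose E went from 10.1 min to 9.04 min at the site and back to 10.97 min, and galactose G from 10.4 to 9.15 and 11.3 min.

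**Figure D3:**
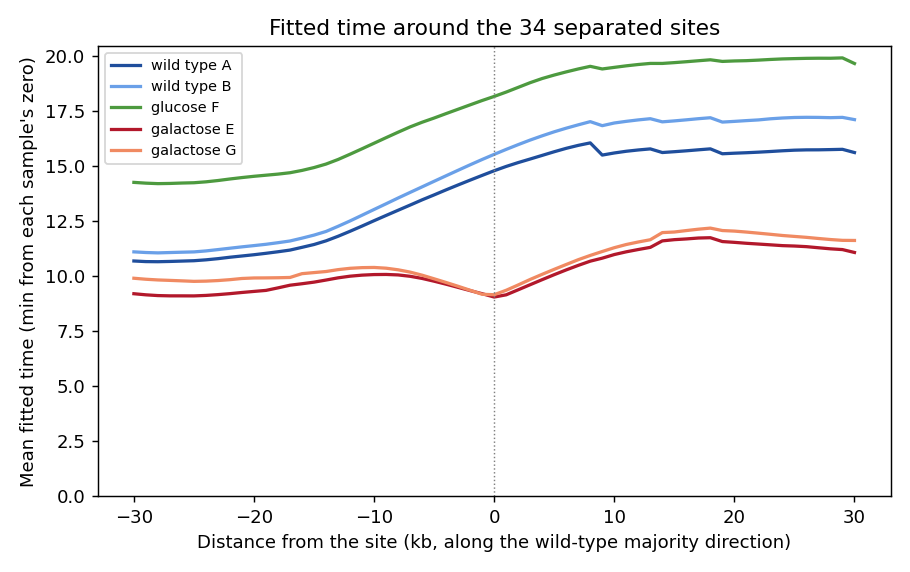
Mean fitted time (min from each sample's own zero) against distance (kb) from the 34 separated sites, turned as in the plot of fork direction, one line per sample. Galactose E and G have a minimum at the site, at 9.04 and 9.15 min, whereas wild type A and B and glucose F rise through it. The glucose line includes chromosome IV sites whose windows were 20.9 to 29.0 min later than wild type.

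The glucose probability played no part in the choice of members. Glucose positions were joined with those of the other samples, however, and entered the median position of a site. Glucose held starts at 10 of the 34 separated sites (29.4%), where 1.42% of comparable positions lie within 2500 bp of a glucose site. Conversely, glucose had 16 sites over 10 kb from any wild-type site, and 10 of these 16 (62.5%) were separated sites. Positions are a low background for sites. Of the 308 sites of both galactose samples, 228 were listed in all 5 samples, and so were 228 of the 277 glucose sites. Of the 23 sites listed in 1 galactose sample and no wild type, 3 were in glucose. The 10 separated sites had a low probability in glucose, from 0.103 to 0.384 with a median of 0.199. It lay below both galactose samples in 9 of the 10. The exception was chromosome II at 720542, with 0.384 in glucose against 0.262 in E and 0.377 in G. Glucose shares its strain and its platform with galactose and not with wild type, and what part either has in this overlap was not tested.

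Among the 10, the weakest in glucose was the weakest in galactose too: chromosome VII at 740025 stood at 0.103 in glucose, 0.154 in E and 0.126 in G. Chromosome VIII at 7799, 7.80 kb from the left end and 37.2 kb from the nearest wild-type site, stood at 0.221 in glucose, 0.365 in E and 0.405 in G. No wild-type fork ran rightward there (0% in A and B), and it was copied at 36.3 and 24.7 min in wild type, 24.3 min in glucose and 9.71 and 9.00 min in galactose. Chromosome IV at 138116 stood at 0.286 in glucose, 0.390 in E and 0.545 in G and was also late in wild type, at 27.1 and 30.3 min, and earlier in glucose at 16.5 min. Starts in glucose were late for most of the 10, with a median of 12.4 min against 5.21 min over all glucose sites. Comparable positions were late in glucose as well, with a median time of 13.2 min against 11.9 min over all positions. At chromosome IV 567999, 1213384 and 1445359 the glucose windows were 9.94 to 21.2 min later than wild type, and at IV 138116 12.2 min earlier.

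In the 24 separated sites that glucose did not list, its rightward share rose by at most 2.04 points across the site. A start makes the rightward share climb from the left to the right side of a site. The mean share in the 5 kb to the right minus that in the 5 kb to the left had a median of -0.253 points in glucose at these 24, and a median of 12.1 points at the 10 listed sites. It is computed from the same fit as the list of starts, so it is a check of the rule and not separate evidence. Below the floor, wild type A held starts at 3 of the 34 sites (VI at 256423, X at 711679 and XIII at 837895, all given above), out of 17 such weak starts in its whole fit, and wild type B at none, out of 7.

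Longer intervals between wild-type sites more often held a separated site. Of the 34 sites 30 lay between 2 wild-type sites and 4 beyond the outermost one. A separated site lay in 11 of 30 intervals over 60 kb (36.7%), 7 of 38 from 50 to 60 kb (18.4%), 5 of 43 from 40 to 50 kb (11.6%), 6 of 71 from 30 to 40 kb (8.45%) and 0 of 80 from 20 to 30 kb. Much of this is room: per Mb of sequence over 10 kb from both edges there were 7.80 separated sites in the longest class and 5.32, 4.59, 5.84 and 0 in the shorter ones. The class of 20 to 30 kb offers little such room, 411.5 kb in all.

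The one interval with 2 separated sites runs over 103 kb of chromosome IV, with sites at 944054 (0.202 in E and 0.298 in G) and 979819 (0.252 and 0.221). Both were weak, and glucose had neither. Within their interval 23 of the 30 sites (76.7%) lay in the middle 50% of its length, where 84.0% of comparable positions lie.

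**Figure D4:**
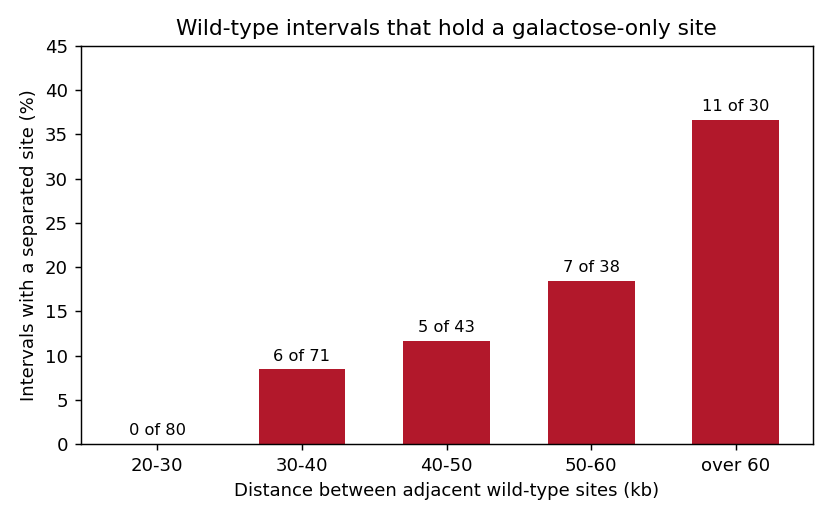
Percentage of intervals between adjacent wild-type sites that hold a separated site, by interval length (kb); each bar carries the number of intervals with such a site and the number in the class. The share climbs from 0 of 80 at 20 to 30 kb to 11 of 30 over 60 kb.

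In their own samples the separated sites were neither early nor late as a group. Ranked among all starts of galactose E, their start times had a median percentile of 53.3, and in G 53.5, and 20 and 19 of the 34 were in the later part. In probability they ranked low, at a median percentile of 12.7 in E and 18.1 in G. The distance to the next site of both galactose samples was a median of 22.3 kb, against 27.8 kb over all 308 sites that both samples list. Most separated sites lie between wild-type sites, many of which galactose also lists. A shorter distance can therefore follow from the choice of members, and it was not tested.

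Wild-type sites beside a separated site were compared with all other wild-type sites. The mean probability of the 56 loci that flank a separated site was 0.527 and 0.566 in wild type A and B, 0.591 in glucose, and 0.651 and 0.664 in galactose E and G. The other 269 wild-type loci stood at 0.508 and 0.566 in wild type, 0.521 in glucose, and 0.685 and 0.741 in galactose. Neither galactose sample listed 10 of the 56 (17.9%) and 37 of the 269 (13.8%). Both galactose samples were lower beside separated sites than elsewhere, a difference that was not tested, since the flanks were picked through the same samples.

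For 8 of the 34 separated sites (23.5%) the nearest wild-type locus was one that neither galactose sample listed, against 14.5% of all 325 wild-type loci. In 3 cases this locus was listed above 0.2 in both wild-type samples. The locus on chromosome IV at 555179 (0.713 in A and 0.818 in B, 0.757 in glucose) lay 12.8 kb from the separated site at 567999. The locus on chromosome XII at 230998 (0.642 and 0.672, 0.788 in glucose) lay 13.6 kb from the one at 244598, and the locus on chromosome II at 378372 (0.267 and 0.226, 0.225 in glucose) 10.7 kb from the one at 389090. At the other 5 the locus had at most 0.187 in either wild-type sample. The loci on chromosomes IV and XII also lie within 10 kb of near sites, IV at 550956 and XII at 222220. No sample had sites closer together than 11.03 kb. With such a spacing the absence of these 3 loci in galactose is given in advance and is no trait of the separated sites. Part of the 23.5% follows from this, so nothing is read from that share.

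Each near site stands next to a wild-type locus that neither galactose sample lists. The nearest wild-type locus of all 12 was at 0 in both E and G. In no sample did any 2 sites lie closer than 11.03 kb, and every near site is within 10 kb of a wild-type site. With such a spacing the 12 of 12 is given in advance and is no trait of the near sites. Whether the fits allow closer sites is not known, so a second site and a moved site cannot be told apart there. Near sites stood between 0.207 and 1 in E and between 0.232 and 1 in G, with a mean of 0.627 and 0.648, and 1 of the 12 was listed in glucose.

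Of the near sites, chromosome VII at 917204 stood at 1 in E and 0.915 in G, 6.78 kb from a locus of 0.166 in wild type B alone. Chromosome V at 212611 stood at 0.889 and 1, and at 0.409 in glucose, and its wild-type neighbour 5.06 kb away (0.420 in A and 0.327 in B) was absent in glucose as well. Chromosome I at 202589 stood at 0.861 and 0.682, 4.73 kb from a locus of 0.189 in wild type B alone.

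Chromosome XVI at 384672 stood at 0.820 in E and 0.821 in G. The wild-type locus 5.54 kb away stood at 0.491 and 0.543 in wild type and 0.674 in glucose. The closest pair was chromosome VII at 568376 (0.799 and 0.805), 3.29 kb from a locus of 0.607 and 0.656 in wild type that glucose lacked. The next closest were chromosome IV at 315664 (0.562 and 0.737) and IV at 1109756 (0.740 and 0.795), 3.60 and 3.99 kb from loci of 0.160 and 0.356 in wild type B alone. Of the 12 neighbours, 7 were listed in both wild-type samples.

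Time and fork direction were compared with limma over all 2386 windows of 5 kb, and site probability over all 407 sites, with Benjamini-Hochberg adjustment at 0.05 over the whole table. The windows of 6 of the 34 separated sites (17.6%) were earlier in galactose than in glucose, against 7.63% of all windows. Galactose had to hold a start at every member, so earlier times there follow in part from the rule. These were chromosome II at 29070 (-15.8 min, SE 2.61, adjusted p = 0.0476), VI at 256423 (-16.2 min, SE 2.09, adjusted p = 0.0294) and 4 on chromosome IV, at 979819, 1213384, 1445359 and 1486956 (-19.7 to -27.9 min). Glucose itself was late on that part of chromosome IV: at 3 of these 4 (979819, 1213384 and 1445359) it was later than wild type by 21.2 to 29.0 min, and these are the 3 of 34 separated sites called later, against 3.77% of windows. Against wild type, galactose was earlier at 2 of the 34 (5.88%), below the 7.8% of all windows. The 2 were VI at 256423 (-18.0 min, adjusted p = 0.0419) and IV at 138116 (-19.8 min, adjusted p = 0.0419). At the 4 windows of chromosome IV above, galactose minus wild type was 5.58, 1.501, -3.39 and -6.95 min, none of them called. The counts of 6 and 3 became 0, as did those of the same comparisons over all windows, when any single galactose or wild-type sample was left out. The percentage of windows called earlier in glucose than in wild type was 0 (122 at an unadjusted p under 0.05, 1 of them at a separated site).

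Without a threshold, both galactose samples were earlier than glucose at 26 of the 34 sites (76.5%), against 57.2% of comparable positions, and the median difference was -7.11 min against -2.68 min. These shares differ in part by construction, since a start in E and G makes a local time minimum in the same fit. In fork direction limma called no window between glucose and wild type (0% called higher and 0% lower, with 241 and 202 windows at an unadjusted p under 0.05, of which 3 and 6 held a separated site). In site probability limma called 27 of the 34 separated sites and all 12 near sites higher in galactose than in glucose, and 24.6% of all sites. Nothing is read from that count, because the test used the probabilities that chose the members: galactose had to be above the floor, and wild type was 0 in both samples, which lowers the spread. Leaving out either wild-type sample brought it to 7 of 34.

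The floor of 0.1 leaves sites close on either side of the rule. The 3 members with the lowest mean in galactose were chromosome VII at 740025, IV at 550956 (0.241 in E and 0.232 in G) and IV at 979819. Just outside were 3 sites of both galactose samples that a single wild-type sample listed weakly. They were chromosome I at 43384 (0.176 in wild type B, 0.456 and 0.707 in galactose), XII at 1024373 (0.180 in A, 0.769 and 0.836) and V at 520926 (0.186 in B, 0.525 and 0.940). In the distance that separates, II at 389090 was the closest inside, at 10.7 kb, and XII at 222220 the closest outside, at 8.78 kb.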

How the data were processed

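Okazaki fragments of 5 yeast samples were analysed from the authors' fitted models. Per the labels, the authors deposited line segments of forks with start and end in bases and minutes and a probability given as a fraction from 0 to 1, the same paths sampled along the chromosomes, and the weighted mean time of each position in minutes; positions are 500 bp apart. The sources used here do not name the aligner, build or fitting program. Recomputing these means from the sampled paths gave the deposited values to within 0.000537 min.

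Net leaving probability was summed per position and time to find sites. Times, fork shares and terminations at a site are means over positions within 5 kb. Comparable positions are all sampled positions over 10 kb from any wild-type site, averaged alike. Models were fitted in R 4.3.3 with limma 3.58.1 (linear fit with moderated variance on 5 samples in 3 groups, which leaves 2 residual degrees of freedom; two-sided), on windows with at least 50% of their positions in every sample, and the single glucose sample takes its spread from the galactose and wild-type pairs. The fit was also run on simulated independent values of equal spread with a large shift, which does not show how it behaves on these windows. Python 3.11.15, numpy 2.4.6, pandas 2.3.3 and matplotlib 3.10.9 did the rest.

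The members, region lists and comparisons were chosen with earlier results of these data known. The rule for named sites took the 20 separated sites with the highest mean in galactose, the 5 highest and 3 closest near sites, and 3 sites on each side of the floor; other named sites were chosen after their values were seen. Gene, centromere, replication origin and motif lists were not used here, since no genome of the files' build was at hand.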

Additional observations from a re-analysis of the deposited data

How the results depend on the processing

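The 46 galactose-only sites were 43, 55 and 66 with floors of 0.05, 0.2 and 0.3, 50 and 39 when joined within 1000 and 5000 bp, and 51 to 64 when 1 replicate was left out of the rule. The 34 separated sites were 27, 46 and 56 with floors of 0.05, 0.2 and 0.3, and 30 and 34 when joined within 1000 and 5000 bp. They were 40 and 13 when separated by over 5 and 20 kb, and 35 to 49 without 1 replicate. Of the 11 members listed in glucose, 7 had a glucose site within 1000 bp. Centred on each sample's median, the median wild-type time of separated sites was 1.64 min later than the median position; from single wild-type samples it was 13.7 to 15.2 min, and the main fork direction 77.1% to 83.5%. In limma, separated windows earlier in galactose than in glucose numbered 0 to 0 without 1 replicate in place of 6, and 4 after centring. Those that differed between glucose and wild type were 5 after centring in place of 3. Over all 2386 windows the calls moved too. After centring, 109 windows in place of 182 were earlier in galactose than in glucose. Between glucose and wild type, 175 in place of 90 differed, so the change from 3 to 5 is not particular to separated windows. Separated sites higher in galactose than in glucose were 7 to 31 without 1 replicate in place of 27. No paired analysis was possible because the labels give no replicate numbers that groups share. Apart from the fewer samples in the fits without 1 replicate, the cause of these changes was not tested. The planned comparison with annotated origins was not run, for want of a genome of the files' build. Without read counts, how far depth limits weak sites is unknown.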
